A study of Homo sapiens with 9 samples.

Results

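The peroxisome proliferator-activated receptors (PPARs) and a group of their well-known target genes were followed in RNA sequencing of the human ovarian cancer line SKOV3. The set held 10 of the 32378 genes in the deposited table: the receptors PPARA, PPARD and PPARG, the coactivator PPARGC1A, the targets PDK4, ANGPTL4 and PLIN2, and the fatty acid oxidation genes CPT1A, ACADVL and HADHA. They were taken by gene name, and the names were chosen by measured values of these same libraries, so their levels and differences are given as a description. Where the text says that a member was called or not, this only places its fitted value against the threshold used for all genes, and is no independent test of the set. Of the 10 genes, 8 passed the filter on low counts and were among the 16450 genes tested; PLIN2 and PPARGC1A did not pass.

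There were 3 groups of 3 libraries. The control group received neither agent, as far as its label says; the Carbo group received Carbo, taken from the series title to be carboplatin, which forms platinum crosslinks in DNA; and the Carbo+COM33 group received Carbo together with COM33, an agent known here only by its code name. All groups were the same cell line grown in RPMI medium with fetal bovine serum and penicillin-streptomycin. The labels give neither dose nor duration, there was no group with COM33 alone, and whether replicate numbers stand for separate cultures is not said, so the p-values cover the spread among these samples alone, and that may be technical. By its design text, the series asks how COM33 raises sensitivity to the drug. In such bulk RNA, fewer cells of a kind and less RNA per cell cannot be told apart.

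PPARs are nuclear receptors that bind DNA as partners of the retinoid X receptors (RXRs) and are switched on by fatty acids and their derivatives. Their targets let a cell burn or store fat: PDK4 phosphorylates and shuts off pyruvate dehydrogenase, which keeps pyruvate out of the citric acid cycle, and ANGPTL4 is a secreted inhibitor of lipoprotein lipase. PDK4 is also a known target of FOXO factors and of the glucocorticoid receptor, and ANGPTL4 is known to respond to hypoxia and glucocorticoids as well.

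Total counts ran from 13851760 to 15533668 per library. ERBB2, which SKOV3 is known to carry in extra copies, stood at 2240 to 2530 CPM (counts scaled to a common library size with TMM factors) in the control and Carbo libraries and at 1490 to 1800 in the Carbo+COM33 libraries. KRT7 stood at 207 to 368 and 116 to 153. Between Carbo and Carbo+COM33 both fell, ERBB2 by 0.57 (adjusted p = 0.00508) and KRT7 by 1.21 (adjusted p = 0.00893) on the log2 scale; their part in the members' differences was not tested. PAX8 (281 to 531 CPM), KRT8 (299 to 418) and KRT18 (98.0 to 147) were present in each library. Of 19 markers of fat, liver, muscle, blood and endothelium, 17 had a row, and their summed level was 4.37 to 6.06 CPM in control, 4.01 to 5.02 in Carbo and 3.90 to 4.40 in Carbo+COM33. PLIN1, with 358 counts over the 9 libraries, made up most of that sum, while the defining genes ALB (76 counts), CKM (13), PTPRC (28) and PECAM1 (16) were near 0, and LEP and FABP4 had 1 count each.

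The DNA just before the RefSeq starts of PDK4 and ANGPTL4 is shown because their transcripts differed most between the groups within the set. The stretches come from the RefSeq promoter table (GRCh38.p14), run 5′ to 3′ along the gene's own strand and end 11 bases before its RefSeq start. That of PDK4 lies at chr7:95596527-95596766 on the minus strand and that of ANGPTL4 at chr19:8363905-8364144 on the plus strand. The latter falls inside the longer span that GENCODE gives ANGPTL4, whose start is further upstream than the RefSeq start used here. Capitals mark the letters GGGCGG (the GC box), CCAAT and TATAAA (the TATA box) on either strand.
PDK4: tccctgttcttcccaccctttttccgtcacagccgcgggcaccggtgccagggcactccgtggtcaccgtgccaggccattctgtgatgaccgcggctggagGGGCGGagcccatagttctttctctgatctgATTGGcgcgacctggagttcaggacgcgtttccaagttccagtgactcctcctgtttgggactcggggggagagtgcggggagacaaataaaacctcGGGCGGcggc
ANGPTL4: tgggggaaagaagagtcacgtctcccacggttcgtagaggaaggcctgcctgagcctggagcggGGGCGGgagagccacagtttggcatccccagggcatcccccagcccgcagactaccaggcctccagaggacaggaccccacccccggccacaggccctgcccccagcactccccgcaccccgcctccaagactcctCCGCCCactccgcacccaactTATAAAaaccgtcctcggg
PDK4 had GGGCGG at 2 places and CCAAT read from the other strand, whereas ANGPTL4 had TATAAA close to its start together with GGGCGG on both strands. Over 35116 RefSeq windows of 300 bases, GGGCGG was found in 45.0%, CCAAT in 34.6% and TATAAA in 11.5%, both strands searched. The hexamer AGGTCA, which PPARs and many other nuclear receptors read, was in 13.8% of all windows and, among the 10 genes, in windows of PPARG alone (3 of the set's 18 windows). The repeat AGGTCANAGGTCA, the idealised PPAR and RXR element, was in 0.0228% of windows and in none of the set's. These are matches of letters in a short window, and elements elsewhere in these genes were not searched.

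In Carbo+COM33 against Carbo, PDK4 and ANGPTL4 stood lower and PPARG higher, while the fatty acid oxidation genes and the other 2 receptors lay within 0.21 of 0 on the log2 scale. A gene is called here when edgeR's quasi-likelihood p, adjusted by Benjamini-Hochberg over all 16450 genes, lies under 0.05. In this comparison 3 of the 8 tested members were called, against 4.96% of all genes (2.43% higher and 2.53% lower). In Carbo+COM33 against control 3 were called as well, ANGPTL4 and ACADVL lower and PPARG higher, against 6.29% of all genes (3.20% higher and 3.09% lower). In Carbo against control none of the 8 was called, as for 0% of all genes; 3 of the 8 (PDK4, ANGPTL4 and ACADVL) and 2748 of all genes had an unadjusted p under 0.05, and DESeq2 called 133 genes but no member. Nothing can be read from these shares about the set, since it was chosen with the same values in view.

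The libraries of Carbo and control with the same replicate number deviated together, so that comparison was also fitted in those 6 libraries with replicate number as a blocking term. In that paired fit PDK4 was called higher and ANGPTL4 and ACADVL lower, beside 22.7% of all genes called (11.2% higher and 11.5% lower). With a trend on GC content and gene length also removed, 10.3% of all genes were called, and of the members PDK4 alone. The members span a wide range of GC content in their longest transcripts, from 39.4% for PDK4 to 63.3% for ANGPTL4.

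**Figure D1:**
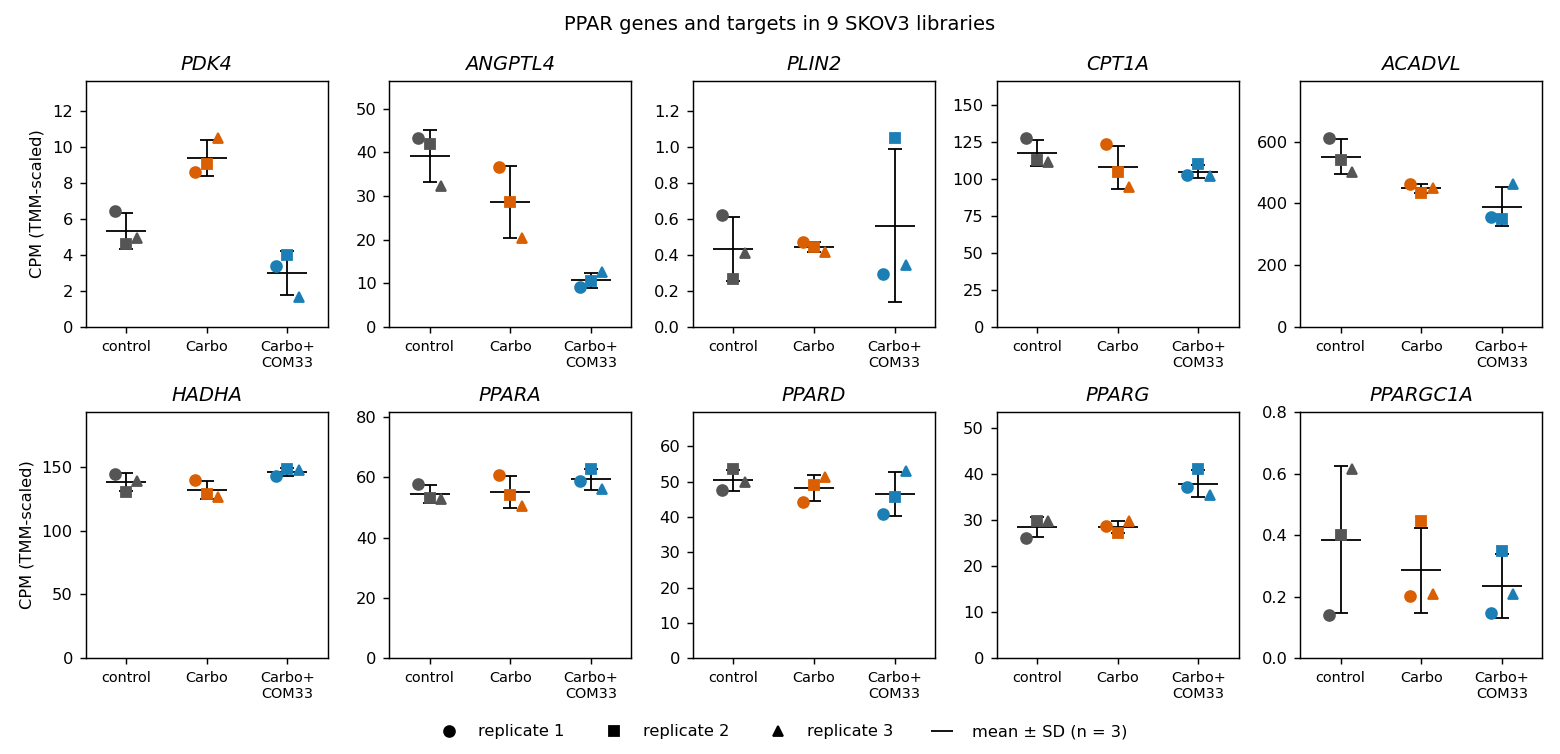
Levels of the 10 genes in each library (vertical axes, CPM, each from 0) by group; marker shape gives the replicate number, and the bars are mean ± SD (n = 3). PDK4 is highest in Carbo and lowest in Carbo+COM33, ANGPTL4 is lowest in Carbo+COM33, and PPARG is highest in Carbo+COM33. Each vertical axis has its own scale, and PLIN2 and PPARGC1A reach no more than 1.05 and 0.616 CPM.

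PDK4 (ENSG00000004799, GRCh38 chromosome 7, 95583499 to 95596491, minus strand) had 3 groups that did not overlap, and how many of all genes tested did so was not counted. Its level was 6.45, 4.60 and 4.93 CPM in control libraries 1 to 3, then 8.61, 9.04 and 10.5 in Carbo, and 3.39, 3.98 and 1.66 in Carbo+COM33. Each Carbo library lay above each control library, and each Carbo+COM33 library lay below both. These levels rest on 24 to 150 counts per library, few beside the other tested members, and the lowest is Carbo+COM33 replicate 3.

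The group means were 5.32 ± 0.987 CPM in control, 9.37 ± 0.968 in Carbo and 3.01 ± 1.20 in Carbo+COM33 (SD, n = 3). Between Carbo+COM33 and Carbo the fitted log2 difference was -1.64 (SE 0.257), a ratio of 0.321. It was called under each of 19 alternatives, which gave -1.89 to -1.34. Carbo stood above control by 0.82 (SE 0.241) on the log2 scale, not called, and by 0.82 (SE 0.162), called, in the paired fit; with the GC and length trend removed the paired difference was 0.66 (SE 0.159), called. Carbo+COM33 against control gave -0.82 (SE 0.267), which was not called although the libraries did not overlap, and which 4 of 19 alternatives called (the unfiltered fit, DESeq2, and the GC and length trend removed with and without the block).

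The other 3 pyruvate dehydrogenase kinases, which share the substrate of PDK4, had smaller differences that were not called. Per length, in FPKM (fragments per kilobase of exon, scaled to the library total), PDK4 was the lowest of the 4 kinases in control at 1.18 ± 0.210, beside 1.92 ± 0.169 for PDK1, 2.54 ± 0.329 for PDK2 and 2.23 ± 0.186 for PDK3 (SD, n = 3). In Carbo it reached 2.08 ± 0.205, between PDK1 (1.80 ± 0.255) and PDK3 (2.51 ± 0.497), and in Carbo+COM33 it was the lowest again at 0.656 ± 0.262. PDK2 gave a log2 difference of -0.47 (SE 0.149, adjusted p = 0.0849) between Carbo+COM33 and Carbo, PDK3 -0.12 (SE 0.181, adjusted p = 0.755) and PDK1 -0.05 (SE 0.128, adjusted p = 0.849). PDK2 was called in that comparison only without Carbo replicate 1.

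The 13 tested genes of the pyruvate dehydrogenase complex, its other regulators (these 3 kinases included) and the mitochondrial pyruvate carrier held no called gene in the 3 unpaired comparisons. Their median log2 difference between Carbo+COM33 and Carbo was -0.01, the same as that of all genes tested. In the paired fit of Carbo against control, which called 22.7% of all genes, 1 of the 13, PDP1, rose. This phosphatase, which reverses the action of the kinases, rose by 0.14 (SE 0.0484, adjusted p = 0.0433). With the GC and length trend removed, where 10.3% of all genes were called, PDP1 was not called. PDPR, a regulatory subunit of the phosphatase, was called there, at 0.17 (SE 0.0538, adjusted p = 0.0467).

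**Figure D2:**
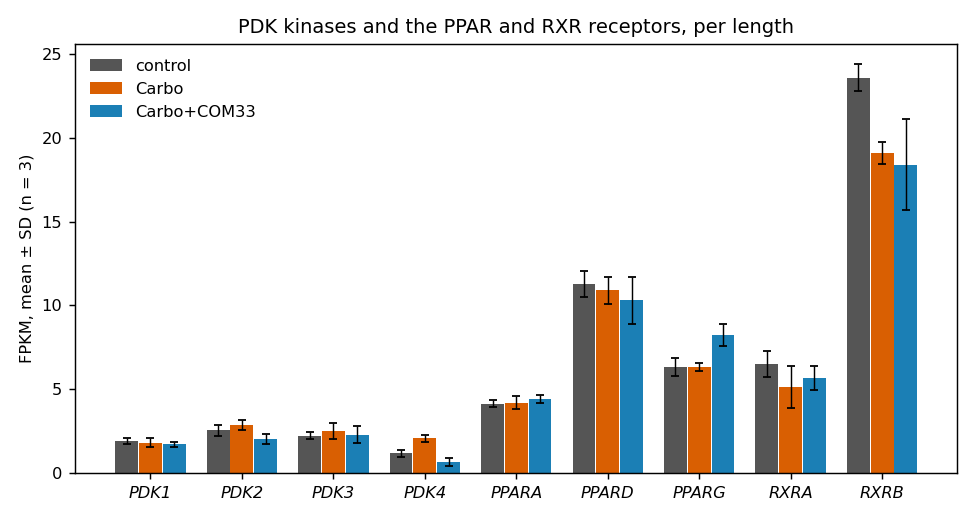
Mean level per length of the 4 pyruvate dehydrogenase kinases, the 3 PPARs and the RXR partners (vertical axis, FPKM from 0; bars are group means, error bars SD, n = 3). PDK4 goes from 1.18 in control to 2.08 in Carbo and 0.656 in Carbo+COM33, while PDK1 and PDK3 stay within their error bars.

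ANGPTL4 (ENSG00000167772; chromosome 19, 8363289 to 8374373, plus strand) was ordered differently from PDK4 across the groups. It measured 43.3, 41.9 and 32.2 CPM in control libraries 1 to 3, then 36.7, 28.7 and 20.4 in Carbo, and 9.13, 10.5 and 12.6 in Carbo+COM33. The Carbo+COM33 libraries all lay below every other library, whereas Carbo and control overlapped, with Carbo replicate 1 above control replicate 3. Within each replicate number, however, Carbo was below control.

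Mean levels were 39.1 ± 6.08 CPM in control, 28.6 ± 8.19 in Carbo and 10.7 ± 1.75 in Carbo+COM33 (SD, n = 3), from 124 to 629 counts per library. The log2 difference between Carbo+COM33 and Carbo was -1.41 (SE 0.203), a ratio of 0.376, and that between Carbo+COM33 and control -1.86 (SE 0.203), a ratio of 0.275. Both were called under each of their 19 alternatives, at -1.60 to -1.19 and -1.99 to -1.64. These 2 comparisons share the Carbo+COM33 libraries. Carbo against control gave -0.45 (SE 0.188), not called, and -0.47 (SE 0.0862), called, when paired; removing the GC and length trend brought the paired value to -0.22, not called. Without Carbo replicate 1 the unpaired difference was -0.67 and called.

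Thus PDK4 and ANGPTL4 had the same direction in Carbo+COM33 against Carbo, but opposite directions in Carbo against control, 2 comparisons that share the Carbo libraries. ANGPTL4 was in each group the more abundant per length, at 15.8 ± 2.42, 11.6 ± 3.34 and 4.27 ± 0.715 FPKM in control, Carbo and Carbo+COM33. A single exonic base of ANGPTL4 is shared with the antisense gene RAB11B-AS1, which had 7 to 18 counts per library.

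The other listed genes of the ANGPTL family gave few counts in these cells. Of 11 genes of that family and of lipoprotein lipase handling, 10 had a row and 3 were tested, none called in the unpaired comparisons. SEL1L, one of the lipase-handling genes, had 35217 counts over the 9 libraries. Its log2 difference between Carbo+COM33 and Carbo was 0.30, called in 2 of 19 alternatives. ANGPTL2 measured 3.10 ± 0.587 CPM in control, 3.17 ± 0.379 in Carbo and 3.54 ± 1.18 in Carbo+COM33 (SD, n = 3). ANGPTL8, a secreted regulator of lipoprotein lipase, had 55 counts over all 9 libraries and was not tested. LMF1, an endoplasmic reticulum factor needed for folding lipase, fell by 0.87 in Carbo in the paired fit (SE 0.243, adjusted p = 0.0158) but was not called with the GC and length trend removed (adjusted p = 0.0803). Lipoprotein lipase itself (LPL) had no row and was not analysed here.

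PLIN2 (ENSG00000147872; chromosome 9, 19108375 to 19149290, minus strand), a coat protein of lipid droplets and a widely used readout of PPAR activity, gave 9, 4 and 6 counts in control, 7, 7 and 6 in Carbo and 4, 15 and 5 in Carbo+COM33. The groups overlapped fully, and no difference was detectable at this depth. Carbo+COM33 replicate 2, with 15 of the 63 counts, was the highest. The mean level was 0.0854 FPKM in control, 0.0879 in Carbo and 0.109 in Carbo+COM33.

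Its protein-coding neighbours on chromosome 9 were read at very different depths. Mean FPKM over the 9 libraries was 37.2 ± 5.03 for RRAGA and 9.93 ± 1.73 for HAUS6 on one side of PLIN2, and 6.06 ± 0.658 for DENND4C and 130 ± 10.5 for the ribosomal protein gene RPS6 on the other (SD over libraries). PLIN2 itself stood at 0.0942 ± 0.0459. ACER2, beyond RPS6, was low as well at 0.277 ± 0.121. The related droplet coat gene PLIN3 had 13430 counts in all, PLIN1 358 and PLIN4 90; these 3 were tested and none was called in an unpaired comparison.

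**Figure D3:**
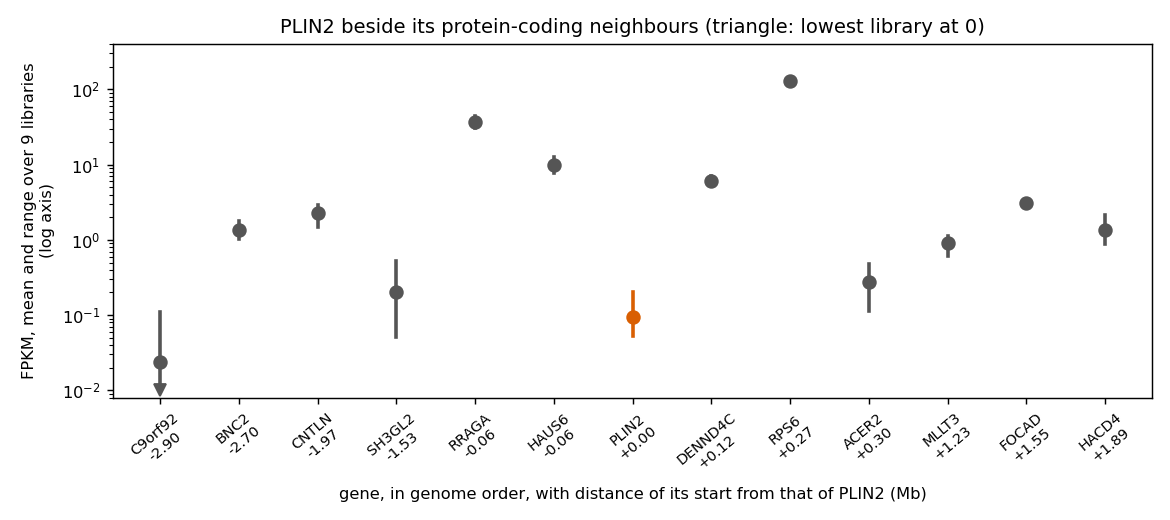
Level of PLIN2 (orange) and of its nearest protein-coding neighbours with a row in the table, in genome order (horizontal axis, with the distance between gene starts in Mb); points are means and bars the range over 9 libraries (FPKM, log axis). PLIN2 lies at 0.0942 between HAUS6 at 9.93 and DENND4C at 6.06.

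The enzymes of fatty acid oxidation in the set were far more abundant. ACADVL (ENSG00000072778; chromosome 17, 7217125 to 7225273, plus strand), the acyl-CoA dehydrogenase that opens the oxidation of very long chains, measured 612, 539 and 503 CPM in control libraries 1 to 3, then 463, 434 and 450 in Carbo, and 356, 350 and 462 in Carbo+COM33. Each control library lay above each library of the other groups, while Carbo and Carbo+COM33 overlapped through Carbo+COM33 replicate 3. The means were 552 ± 55.7, 449 ± 14.7 and 389 ± 62.7 CPM (SD, n = 3).

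The log2 difference of ACADVL was -0.50 (SE 0.111) between Carbo+COM33 and control, called, and -0.21 between Carbo+COM33 and Carbo, not called. The first of these was not called without control replicate 1, control replicate 2, Carbo+COM33 replicate 1 or Carbo+COM33 replicate 2, at -0.64 to -0.41 over the 9 left-out libraries. Between Carbo and control it was -0.30 (SE 0.11), not called, and -0.29 (SE 0.0481), called, in the paired fit; with the GC and length trend removed the paired value was -0.14, not called. ACADVL shares 85 exonic bases with DLG4 on the opposite strand. DLG4 had 265 to 637 counts per library and fell between Carbo and Carbo+COM33 by 0.71 (SE 0.111, adjusted p = 0.00468). How reads in the shared bases were counted is not given in the sources used here.

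CPT1A (ENSG00000110090; chromosome 11, 68754620 to 68844410, minus strand) makes the acylcarnitines that enter mitochondria, a step that limits the rate of oxidation. It measured 128, 113 and 112 CPM in control, 124, 105 and 94.9 in Carbo, and 103, 110 and 102 in Carbo+COM33. The groups overlapped, and the log2 differences were -0.13, -0.04 and -0.17 for Carbo against control, Carbo+COM33 against Carbo and Carbo+COM33 against control. None of these was called, nor was the paired value of -0.13; the paired fit without pair 1 did call CPT1A, at -0.18.

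HADHA (ENSG00000084754; chromosome 2, 26190635 to 26244726, minus strand), the alpha subunit of the mitochondrial trifunctional protein, had the narrowest spread relative to its level among the 8 tested members: 145, 131 and 139 CPM in control, 140, 129 and 127 in Carbo, and 143, 149 and 148 in Carbo+COM33. Its Carbo+COM33 libraries lay just above those of Carbo and overlapped with control. Its log2 differences of -0.06, 0.15 and 0.09 in the same order were not called in any alternative. Per length, the order of the 3 enzymes in control was ACADVL at 114 ± 10.8 FPKM, HADHA at 31.7 ± 1.43 and CPT1A at 18.0 ± 1.22 (SD, n = 3), and it was the same in the other groups.

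Among 23 further tested genes of mitochondrial fatty acid oxidation, none was called between Carbo+COM33 and Carbo. Their median log2 difference was -0.04, beside -0.01 for all genes, and the extremes were ACAA2, a thiolase, at -0.79 (SE 0.333, adjusted p = 0.186) and HADHB, the partner subunit of HADHA, at 0.31. Between Carbo+COM33 and control, where 6.29% of all genes were called, 1 of the 23 was called. ACSL3, an acyl-CoA synthetase of lipid droplets and the endoplasmic reticulum, rose by 0.34 (SE 0.0782, adjusted p = 0.0259). That call was lost without control replicate 2, control replicate 3, Carbo+COM33 replicate 1 or Carbo+COM33 replicate 2, and with the GC and length trend removed. In the paired fit of Carbo against control, which called 22.7% of all genes, 3 of the 23 rose and 3 fell. The 4 with the largest differences were the acyl-CoA synthetases ACSL5 at 0.40 (SE 0.0970, adjusted p = 0.00652) and ACSL4 at 0.30 (adjusted p = 0.000974), ECI1, an enoyl-CoA isomerase, at -0.36 (SE 0.0591, adjusted p = 0.000366), and ACOT2, a thioesterase, at -0.21 (adjusted p = 0.0148). With the GC and length trend removed, ACSL5 (0.33, adjusted p = 0.0334) was the only one of the 6 still called, and HADHB (-0.22, adjusted p = 0.0127) was called besides. That fit called 10.3% of all genes.

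Of 14 tested genes of peroxisomal oxidation, 1 was called between Carbo+COM33 and Carbo, beside 4.96% of all genes. CAT, the catalase that clears the hydrogen peroxide made there, fell from 45.6 ± 9.22 to 27.7 ± 2.78 CPM (SD, n = 3), by 0.72 on the log2 scale (SE 0.148, adjusted p = 0.0169). The call was lost without Carbo replicate 2, Carbo replicate 3, Carbo+COM33 replicate 1 or Carbo+COM33 replicate 3. Between control and Carbo, in the paired fit, CAT rose by 0.20 (adjusted p = 0.0498), and was not called with the GC and length trend removed. The median of the 14 was 0.01, and EHHADH, a classic PPAR-responsive enzyme of this pathway, was not called in any unpaired comparison.

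**Figure D4:**
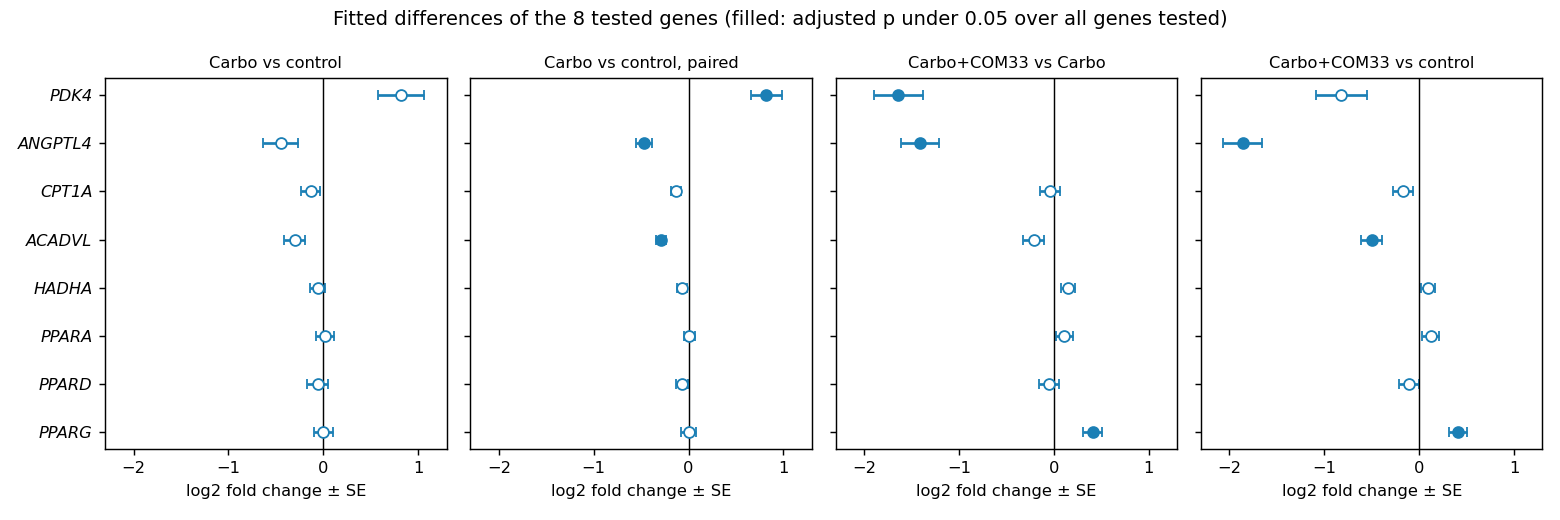
Fitted log2 fold changes (horizontal axes, with SE) of the 8 tested members in the 3 unpaired comparisons and in the paired fit of Carbo against control; filled points are called over all 16450 genes. PDK4 goes from 0.82 in Carbo against control to -1.64 in Carbo+COM33 against Carbo, while ANGPTL4 is below 0 in each panel.

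The receptors were all expressed. PPARG (ENSG00000132170; chromosome 3, 12287368 to 12434356, plus strand), the receptor best known for fat cell formation, measured 26.1, 29.8 and 29.8 CPM in control, 28.8, 27.2 and 29.8 in Carbo, and 37.3, 41.2 and 35.4 in Carbo+COM33. The Carbo+COM33 libraries stood above all others, and control and Carbo had the same mean of 28.6 CPM (SD 2.14 and 1.31), beside 38.0 ± 2.97 in Carbo+COM33. The log2 difference was 0.41 (SE 0.0991), a ratio of 1.33, against Carbo and 0.41 (SE 0.0992) against control, both called; Carbo against control gave 0.00.

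These calls of PPARG lay close to the threshold. Against Carbo, 10 of 19 alternatives called it, at 0.35 to 0.46, and against control 11 of 19, over the same range. Of the 9 fits with a library left out, 3 called it in each comparison; the call against Carbo was lost without control replicate 2, control replicate 3, Carbo replicate 2, Carbo replicate 3, Carbo+COM33 replicate 1 or Carbo+COM33 replicate 2, and that against control without any control library, Carbo replicate 2, Carbo+COM33 replicate 1 or Carbo+COM33 replicate 2.

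PPARA (ENSG00000186951; chromosome 22, 46150521 to 46243756, plus strand), the main receptor for fatty acid oxidation in liver, gave 57.8, 53.0 and 52.7 CPM in control, 60.8, 54.0 and 50.6 in Carbo, and 58.9, 62.9 and 56.2 in Carbo+COM33. PPARD (ENSG00000112033; chromosome 6, 35342558 to 35428191, plus strand), which is expressed in most tissues, gave 47.6, 53.7 and 49.8, then 44.3, 49.0 and 51.3, and 40.8, 45.7 and 53.1. For both receptors the 3 groups overlapped, with log2 differences of 0.02, 0.11 and 0.12 for PPARA and -0.06, -0.05 and -0.11 for PPARD, none called in any alternative. Per length, PPARD was the most abundant receptor in each group (11.3 ± 0.781 FPKM in control), followed by PPARG (6.33 ± 0.515) and PPARA (4.14 ± 0.190; SD, n = 3).

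PPARGC1A (ENSG00000109819; chromosome 4, 23755041 to 23904089, minus strand), the coactivator that drives oxidative metabolism in muscle and brown fat, had 2, 6 and 9 counts in control, 3, 7 and 3 in Carbo and 2, 5 and 3 in Carbo+COM33. With 40 counts in all, differences between the overlapping groups were not detectable at this depth. Its relative PPARGC1B was low too, at 4.39 ± 1.06 CPM in control, 3.43 ± 1.65 in Carbo and 5.08 ± 0.204 in Carbo+COM33 (SD, n = 3), with no call in an unpaired comparison.

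Of 19 tested partners and coregulators of the receptors, none was called in the 3 unpaired comparisons, and their median between Carbo+COM33 and Carbo was 0.02. RXRB stood at 23.6 ± 0.793 FPKM in control, 19.1 ± 0.638 in Carbo and 18.4 ± 2.71 in Carbo+COM33, and RXRA at 6.49 ± 0.792, 5.15 ± 1.25 and 5.68 ± 0.716 (SD, n = 3). In the paired fit of Carbo against control, 4 of the 19 rose and 5 fell. That fit called 22.7% of all genes, and 10.3% with the GC and length trend removed. RXRA fell by 0.35 (SE 0.0665, adjusted p = 0.00123), RXRB by 0.31 (SE 0.0532, adjusted p = 0.000603) and ESRRA, an orphan receptor that works with PPARGC1A, by 0.55 (SE 0.0697, adjusted p = 4.82e-05), while NRIP1, a corepressor, rose by 0.32 (adjusted p = 0.00219). With the GC and length trend removed ESRRA was still called, at -0.32 (adjusted p = 0.00513), and the acetyltransferase CREBBP was called at 0.15 (adjusted p = 0.0297), but NRIP1, RXRA (adjusted p = 0.0938) and RXRB (adjusted p = 0.0613) were not.

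Of 32 listed genes of lipid droplets, lipid transport and other PPAR responses, 27 had a row and 19 were tested. Between Carbo+COM33 and Carbo 2 rose and 2 fell, and 15 did not pass, beside 4.96% of all genes called; the median was 0.12, that of all genes -0.01. MGLL, which releases the last fatty acid of a triglyceride, rose by 0.69 (SE 0.134, adjusted p = 0.0126), and KLF10, a zinc finger factor induced by TGF-beta, by 0.71 (SE 0.160, adjusted p = 0.0256). IMPA2, an inositol monophosphatase, fell by 0.73 (SE 0.115, adjusted p = 0.00468) and UCP2, a mitochondrial carrier, by 1.21 (SE 0.302, adjusted p = 0.0393).

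IMPA2 had 88.8, 110 and 127 CPM in Carbo and 64.1, 62.4 and 69.1 in Carbo+COM33, without overlap, and was called in all 19 alternatives. The calls of the other 3 were lost when certain libraries were left out, but their log2 differences kept their sign over 19 alternatives. These ran from 0.59 to 0.84 for MGLL, 0.58 to 0.89 for KLF10 and -1.48 to -0.89 for UCP2. Calls over all genes fell as well, from 816 to 120 without Carbo replicate 2, 262 without Carbo replicate 3 and 234 without Carbo+COM33 replicate 1. MGLL was not called without Carbo replicate 2, Carbo replicate 3 or Carbo+COM33 replicate 1; KLF10 without those or Carbo+COM33 replicate 2; and UCP2 stayed called only without control replicate 1 or Carbo replicate 1 among the left-out libraries. Limma on FPKM called neither KLF10 nor UCP2. Against control, where 6.29% of all genes were called, MGLL (0.56, adjusted p = 0.0297) and KLF10 (0.89, adjusted p = 0.0102) rose. IMPA2 (-0.70, adjusted p = 0.00595) fell, as did PNPLA2 (-0.45, adjusted p = 0.0209), the lipase that starts triglyceride breakdown. All 4 of these calls were lost without control replicate 2, and the other 3 than IMPA2 also without control replicate 3 or Carbo+COM33 replicate 1. Those of MGLL and PNPLA2 were lost without Carbo+COM33 replicate 2 too, that of MGLL without Carbo replicate 2 and with limma, and that of PNPLA2 with the GC and length trend removed (-0.54 to -0.22 over 19 alternatives). In the paired fit of Carbo against control, which called 22.7% of all genes, KLF10 rose by 0.17. G0S2, MGLL and PNPLA2 fell there, by 0.28, 0.13 and 0.20. KLF10 alone of these genes was still called with the GC and length trend removed, where 10.3% of all genes were called. That fit also called UCP2 (0.52, adjusted p = 0.0291) and TXNIP (-0.24, adjusted p = 0.00899). CD36, with 4 counts in all, and FABP4, with 1, were too low to test.

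Over all 91 tested genes of these lists around the pathway, 5 (5.49%) were called between Carbo+COM33 and Carbo, beside 4.96% of all genes, and 5 (5.49%) between Carbo+COM33 and control, beside 6.29%. None was called in the unpaired fit of Carbo against control. There 13 of the 91 and 2748 of all 16450 genes tested had an unadjusted p under 0.05. The paired fit called 22 (24.2%) beside 22.7% of all genes, and with the GC and length trend removed 8 (8.79%) beside 10.3%. In each comparison the share was close to that of all genes.

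**Figure D5:**
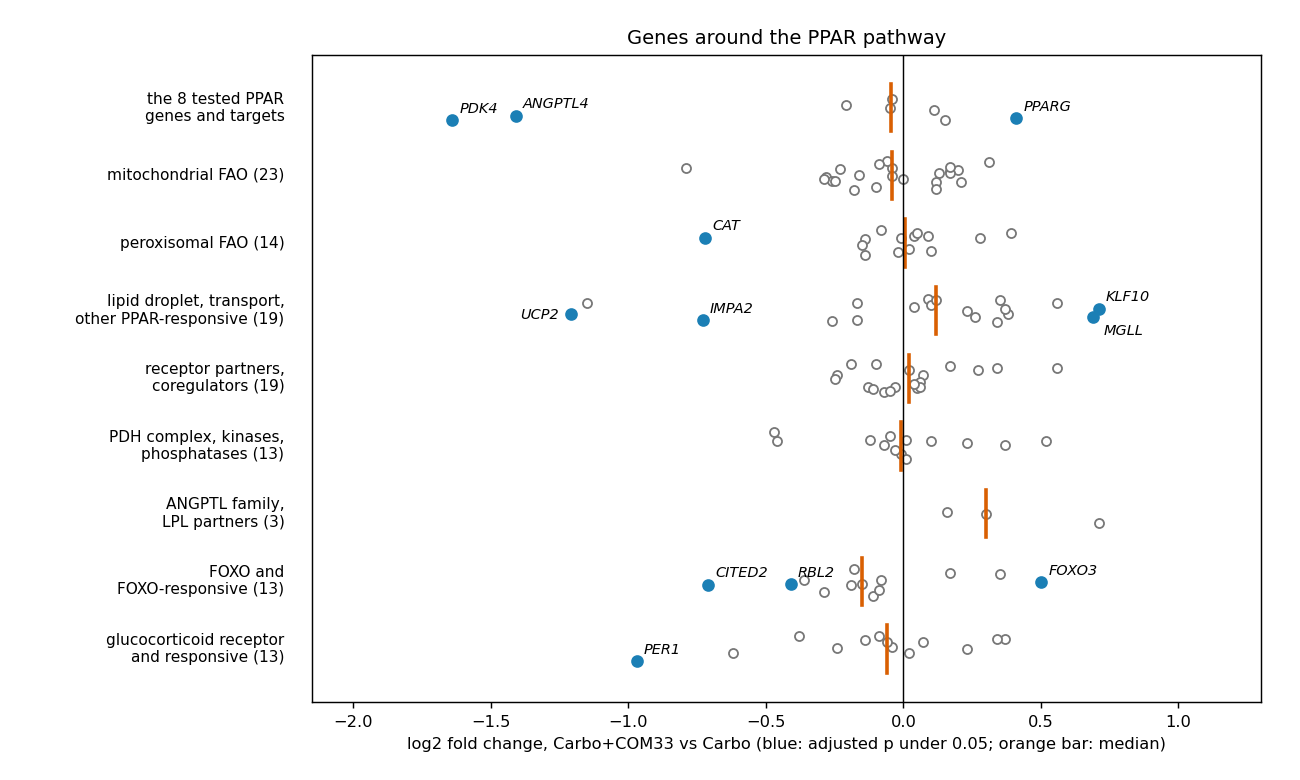
Log2 fold change in Carbo+COM33 against Carbo (horizontal axis) of the 8 tested members and of the genes in each list around the pathway (number tested in brackets); blue points are called, orange bars are medians. PDK4 and ANGPTL4 lie at -1.64 and -1.41, further from 0 than the listed genes, while the medians of the lists lie between -0.15 and 0.30.

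As PDK4 is also a known target of FOXO factors and the glucocorticoid receptor, their genes were set beside it. FOXO1 gave log2 differences of 0.09, -0.29 (adjusted p = 0.0860) and -0.20 in Carbo against control, Carbo+COM33 against Carbo and Carbo+COM33 against control, and NR3C1, the glucocorticoid receptor, 0.07, 0.02 and 0.09; none was called. Of 13 tested FOXO factors and responsive genes, 1 rose and 2 fell between Carbo+COM33 and Carbo, beside 4.96% of all genes called. FOXO3 rose by 0.50 (SE 0.106, adjusted p = 0.0202), and CITED2, a transcriptional coregulator, fell by 0.71 (SE 0.133, adjusted p = 0.0106) and RBL2, a pocket protein of the cell cycle, by 0.41 (SE 0.0819, adjusted p = 0.0143). Each of these calls was lost when certain libraries were left out, among them Carbo replicate 2 and Carbo+COM33 replicate 1 for all 3. Against control, FOXO3 (0.47, adjusted p = 0.0256) and TRIB1 (0.48, adjusted p = 0.0418), a pseudokinase, rose and FOXO4 (-0.64, adjusted p = 0.0373) fell, beside 6.29% of all genes called. These calls were lost without control replicate 2, control replicate 3, Carbo+COM33 replicate 1 or Carbo+COM33 replicate 2, that of FOXO4 also without control replicate 1 and with the GC and length trend removed, and that of TRIB1 without Carbo replicate 2 and with limma.

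CITED2 measured 54.7 ± 6.22 CPM in control, 66.1 ± 11.8 in Carbo and 40.3 ± 3.87 in Carbo+COM33 (SD, n = 3). Carbo against control, when paired, gave a rise of 0.26 for CITED2 (adjusted p = 0.00641) and of 0.16 for RBL2 (adjusted p = 0.0288); CITED2 alone was called with the GC and length trend removed. Of 13 tested glucocorticoid-responsive genes 1 was called between Carbo+COM33 and Carbo, beside 4.96% of all genes. PER1, a clock gene, fell by 0.97 (SE 0.198, adjusted p = 0.0165), from 18.8 ± 3.84 to 9.58 ± 1.56 CPM. Against control, where 6.29% of all genes were called, PER1 fell by 0.92 (adjusted p = 0.0204) and MT2A, a metallothionein, rose by 0.62 (adjusted p = 0.0270). Both calls were lost without control replicate 2, control replicate 3, Carbo+COM33 replicate 1 or Carbo+COM33 replicate 2. That of PER1 was also lost with the GC and length trend removed, and that of MT2A with limma. The call of PER1 against Carbo was lost without Carbo replicate 2, Carbo replicate 3, Carbo+COM33 replicate 1 or Carbo+COM33 replicate 2. In the paired fit of Carbo against control, SGK1 rose by 0.51 (SE 0.122, adjusted p = 0.00653), FKBP5 by 0.49 (SE 0.163, adjusted p = 0.0405) and MT2A by 0.25 (adjusted p = 0.0112), and CEBPD fell by 0.24 (adjusted p = 0.0131). This fit, given for CITED2 and RBL2 too, called 22.7% of all genes, and 10.3% with the GC and length trend removed. With the GC and length trend removed MT2A was called higher, at 0.39 (adjusted p = 0.000265), and ERRFI1 lower, at -0.21 (adjusted p = 0.00492), while SGK1, FKBP5 and CEBPD were not called.

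The genes most like PDK4 over the 9 libraries, by Pearson correlation of log2 CPM, were ATG9A (r = 0.960), KAT6B (0.948), AFF1 (0.941), IGF2BP3 (0.940) and RCOR1 (0.939). Their group means moved over a narrower range: RCOR1, for example, had 167, 187 and 152 CPM in control, Carbo and Carbo+COM33. The genes most like ANGPTL4 were NTN4 (r = 0.990), HDAC4 (0.987), MEF2D (0.973), JUND (0.972) and CBX2 (0.968), with NTN4 at 944, 902 and 754 CPM and HDAC4 at 71.6, 66.2 and 47.7. None was among the listed genes of the pathway. These correlations are over the same 9 libraries that set the groups apart, share their depth and scaling, and are the highest of 16450, so they describe likeness only.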

How the data were processed

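RNA was measured in 9 SKOV3 libraries (poly-T selected mRNA, paired-end reads). The authors deposited whole-number read counts per gene and FPKM values; the tools were HISAT2, DESeq2 1.26.0 and HTSeq 0.11.2 and the build GRCh38, per the submitters' processing notes; settings, strand included, are not given in the sources used here. The deposited FPKM match counts per union exon length and library total, within 0.5 bp for 32283 genes. All 32378 genes matched GENCODE 29, the source of coordinates; 0 sample columns were left unlisted. Counts were tested with edgeR 4.0.16 (filterByExpr, TMM, quasi-likelihood test, 1 coefficient per group, 6 residual degrees of freedom; R 4.3.3), adjusted by Benjamini-Hochberg over 16450 genes and called at 0.05; the script was tested on simulated data. FPKM gave levels per length and 1 alternative (limma 3.58.1, pseudocount 0.1). Total counts of 13851760 to 15533668 limit the precision of genes with few counts.

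Replicate numbers come from the sample titles. Over 6607 genes with a mean log2 CPM over 5, deviations from the group means in control and Carbo libraries of 1 number correlated at 0.824, 0.565 and 0.748, so the paired fit (2 residual degrees of freedom) stands beside that comparison; the GC and length trend was a spline with 5 degrees of freedom. The other comparisons are unpaired. Alternatives were RLE factors, no or a stricter filter, DESeq2 1.42.0, limma, the replicate block, 2 groups alone, GC and length, and leaving out each library; pairs left out were added after seeing the data. The 10 members and the gene lists were chosen with earlier results of these data known. Named are all members, 8 fixed relatives, up to 4 called genes per list and comparison with the largest differences, and the 5 genes most like PDK4 and ANGPTL4; other genes named for context, such as DLG4 and the neighbours of PLIN2, were picked after their values were seen. Some listed genes are not reported here. Promoter letters were searched in RefSeq windows with Python 3.11.15 and pandas 2.3.3; plots used matplotlib 3.10.9.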

Additional observations from a re-analysis of the deposited data

How the results depend on the processing

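No member changed direction under an alternative that called it. In Carbo against control, where no member and no listed pathway gene was called unpaired, the unfiltered fit called 3 members and 3 pathway genes, the replicate block in the 2 groups alone 3 and 22, and the block with the GC and length trend removed 1 and 8. With pairs 1, 2 and 3 left out in turn the block called 4, 3 and 3 members and 27, 9 and 17 pathway genes. Beside these, 4338, 1623 and 2842 of all 16450 genes were called. Leaving out single libraries without a block gave 0 to 1 and 0 to 4, the higher values without Carbo replicate 1, where 1034 of all genes were called. In Carbo+COM33 against Carbo, leaving out a library called 2 to 3 members, and 1 to 16 pathway genes beside 5 with all libraries: 16 without Carbo replicate 1, 1 each without Carbo replicate 2, Carbo replicate 3 or Carbo+COM33 replicate 1, and 3 without Carbo+COM33 replicate 2 or 3; the unfiltered fit gave 11 and limma 3. In Carbo+COM33 against control it was 1 to 3 members and 0 to 14 pathway genes beside 5: 14 without Carbo replicate 1, 9 without Carbo+COM33 replicate 3, 8 without control replicate 1 or Carbo replicate 3, 2 without Carbo+COM33 replicate 2, 1 without control replicate 3 or Carbo+COM33 replicate 1, and 0 without control replicate 2. Pathway calls there were 14 unfiltered, 11 with DESeq2, 10 with the 2 groups alone, 13 with the replicate block in all 9 libraries, 9 with the block in 2 groups and 11 with block, GC and length. Same-numbered libraries did not deviate together in these 2 comparisons (correlations of -0.015, 0.138 and -0.388, and 0.0851, 0.101 and -0.420), so the block is no pairing there. Over all genes, calls in the 3 comparisons (0, 816 and 1035) were 928, 1876 and 1934 unfiltered, 133, 1340 and 1563 with DESeq2, 0, 446 and 652 with limma, and 0, 1554 and 1625 with the block in 9 libraries; GC and length removal gave 1234 for Carbo+COM33 against Carbo. With single libraries left out, calls over all genes ran from 120 (without Carbo replicate 2) to 2721 (without Carbo replicate 1) in Carbo+COM33 against Carbo. In Carbo+COM33 against control they ran from 114 (without control replicate 2) to 2208 (without Carbo+COM33 replicate 3), with 1809 without Carbo replicate 1. That comparison had 1462 with the 2 groups alone, 1129 with the block in 2 groups and 1695 with block, GC and length. The cause of these moves was not tested. PLIN2 and PPARGC1A had too few counts for a comparison, and PDK4 rests on few counts. Each group had 3 libraries.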
